A study of Mus musculus with 2 samples.

Results

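The genes described here are 10 genes that mark lipid-associated macrophages, taken by symbol from the 32285 genes counted in each of 2 single-cell libraries of mouse pancreatic tumour: Trem2, Gpnmb, Apoe, Lpl, Fabp4, Fabp5, Spp1, Lgals3, Cd36 and Cd9. All 10 were found. They were measured in 9558 kept cells of the vehicle library and 25183 of the takinib library. Of these, 4899 vehicle and 6327 takinib cells were macrophage-like, the name given here to clusters that carry macrophage markers.

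The tumours came from KPPC mice, an engineered model of pancreatic ductal adenocarcinoma, aged 6 weeks. One group, of 1 library, received vehicle. The other, also of 1 library, received takinib, an inhibitor of TAK1, which is a kinase of the signalling chains that lead to NF-kB and to AP-1, at 50 mg/kg for 14 days. All mice of both groups share the KPPC genotype, whose alleles and driver are not spelled out in the labels, nor is the number of mice behind a library. With 1 library per group no test of treatment was possible, no p-value is given and no difference has a replicate check. Square brackets hold 95% intervals, which cover the error of counting alone.

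Lipid-associated macrophages are tissue macrophages that take up and process lipid, and they are known from obese adipose tissue, atherosclerotic plaque, injured liver and tumours. Trem2 is a surface receptor that binds lipids and apolipoproteins and signals through the adaptor Tyrobp. The other genes serve lipid uptake (Cd36), hydrolysis of triglyceride-rich lipoproteins (Lpl), fatty acid binding inside the cell (Fabp4, Fabp5) and lipid transport out of it (Apoe), or encode a glycoprotein of lysosomes and the cell surface (Gpnmb), secreted osteopontin (Spp1), a galectin (Lgals3) and a tetraspanin (Cd9).

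Start-site sequence was looked at because takinib acts upstream of AP-1. The RefSeq promoter table (GRCm38.p6) matched 7 of the 10 genes, all but Lpl, Fabp4 and Fabp5. In the 250 bases before the start, 3 sets of letters were searched on both strands: TGANTCA, the letters of AP-1 sites, CATGTG, an E-box bound by the MITF and TFE family, and GAGGAA, the core of PU.1 sites. None of the matches found overlaps another. Shown are the windows of Gpnmb, the gene with the largest difference between the libraries, and of Trem2 and Spp1, with matches in capitals (TTCCTC is GAGGAA read on the other strand). Positions are chr6:49036268-49036517, chr17:48346151-48346400 and chr5:104434861-104435110, all on the plus strand.
Gpnmb: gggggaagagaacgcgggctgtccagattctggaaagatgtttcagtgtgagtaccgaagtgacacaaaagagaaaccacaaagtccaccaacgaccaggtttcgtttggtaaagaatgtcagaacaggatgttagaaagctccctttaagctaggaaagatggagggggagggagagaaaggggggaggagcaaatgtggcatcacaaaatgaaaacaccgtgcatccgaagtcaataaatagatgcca
Trem2: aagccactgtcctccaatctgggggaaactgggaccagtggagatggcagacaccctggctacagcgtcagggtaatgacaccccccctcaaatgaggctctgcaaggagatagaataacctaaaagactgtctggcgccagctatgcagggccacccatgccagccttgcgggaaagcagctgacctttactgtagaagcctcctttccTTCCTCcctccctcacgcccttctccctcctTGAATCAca
Spp1: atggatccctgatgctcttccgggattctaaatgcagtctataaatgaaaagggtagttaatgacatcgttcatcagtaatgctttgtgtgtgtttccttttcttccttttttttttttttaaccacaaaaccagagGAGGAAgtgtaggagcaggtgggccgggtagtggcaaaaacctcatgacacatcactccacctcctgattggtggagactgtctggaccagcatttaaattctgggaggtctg
The Trem2 window held TGANTCA at 9 bases and GAGGAA at 40 bases before the start. The Spp1 window held GAGGAA at 113 bases. The Gpnmb window held none of the 3. A TGANTCA match lay 9 bases after the RefSeq start of Gpnmb, and is shown with 10 bases on each side (chr6:49036516-49036542). GENCODE M21 puts the start of the gene after it, at 49036546.
Gpnmb site: caggggcaagTGACTCAtgagcacgag
Of 32851 promoter windows of the same length, 6.75% held TGANTCA, 12.3% held CATGTG and 23.3% held GAGGAA. Of the other 4 matched genes, Apoe had GAGGAA at 250 bases, Cd9 had CATGTG at 38 bases, and Lgals3 and Cd36 had no match. The Lgals3 and Cd36 windows (chr14:47373610-47373859 and chr5:17835897-17836146) lie inside the GENCODE M21 spans of the genes, away from their outer starts. The RefSeq table lists 3 starts for Apoe and 2 for Spp1, of which 1 was used for each. Other starts were not searched. A match describes the letters in the window and not a site in use.

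The libraries differed in more than treatment. Median depth per kept cell was 3556 UMIs (unique molecular identifiers, each standing for a captured transcript) in vehicle and 2887 in takinib, and the median share of mitochondrial UMIs was 8.70% and 1.79%. Before doublets were removed, 3204 vehicle cells carried UMIs of Y-linked genes without Xist and 1120 carried Xist without Y-linked UMIs, while takinib had 15602 cells of the second kind and 0 Y-linked UMIs. The vehicle file also held empty barcodes and the takinib file did not, and 400 barcodes past the filters were present in both libraries, of 9872 and 26790. Levels are given as CPM, the UMIs of a gene per 1000000 UMIs of the cells concerned. In macrophage-like cells the sum of 9 neutrophil markers was 331 CPM for vehicle and 7550 CPM for takinib. Treatment, library, sex and these differences cannot be told apart.

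The 12 macrophage markers were all detected in macrophage-like cells, with sums of 29812 CPM for vehicle and 20677 CPM for takinib. Adipocyte markers, listed because Fabp4, Cd36 and Lpl are also genes of fat cells, summed to 0.898 and 3.98 CPM over 7 genes, with Lep at 0 in both libraries. Clusters were built without the 10 genes, and within the macrophage-like class they were named by state. The class II-high state (genes of antigen presentation, with Dcstamp) held 3730 vehicle and 262 takinib cells. The C1q state (complement C1q genes, Pf4, Ccl8, Selenop) held 142 and 1014, and the alveolar-like state (Ear2, Car4, Chil3, Atp6v0d2) held 760 and 2054. The Saa3-Arg1 state held 29 and 2666 cells, a proliferating state 205 and 176, and a cluster that mixes states and carries Cd79b 33 and 155. A class of classical monocytes (Ly6c2, Ccr2, Vcan) held 86 and 834 cells and is not counted as macrophage-like. Different clusters thus hold most of the class in each library: the class II-high state gave 72.2% of its UMIs in vehicle and 3.28% in takinib, and the Saa3-Arg1 state 0.651% and 42.5%.

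Most UMIs of Trem2, Apoe and Gpnmb came from macrophages in both libraries. Macrophage-like cells held 92.9% of all Trem2 UMIs in vehicle and 86.7% in takinib, and 93.6% and 88.1% of all Apoe UMIs, where they held 50.4% and 36.7% of UMIs of all genes. For Gpnmb the shares were 83.9% and 88.3%, for Lgals3 79.0% and 64.2%, for Fabp5 77.3% and 81.6%, and for Lpl 74.7% and 86.6%. Apoe and Trem2 had the highest shares in vehicle, and Gpnmb and Apoe in takinib. Spp1 UMIs came mostly from epithelial-like cells in vehicle, 69.9% against 23.5% from macrophage-like cells, and about evenly from both classes in takinib, 46.3% and 44.3%. Fabp4 came from endothelial-like cells in vehicle, 60.1%, with a further 18.5% from perivascular-like cells and 14.3% from macrophage-like cells. In takinib macrophage-like cells held 67.7% of Fabp4 and endothelial-like cells 7.25%. Cd36 showed the same pair of classes, 31.6% endothelial-like and 51.1% macrophage-like in vehicle, 8.01% and 72.8% in takinib. Cd9 was spread over macrophage-like (54.3%) and epithelial-like cells (34.1%) in vehicle, and neutrophil-like cells held 30.7% of it in takinib. These shares follow how many cells of each class a library holds as well as the level per cell: there were 716 vehicle and 104 takinib endothelial-like cells, and 28 and 8895 neutrophil-like ones.

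**Figure D1:**
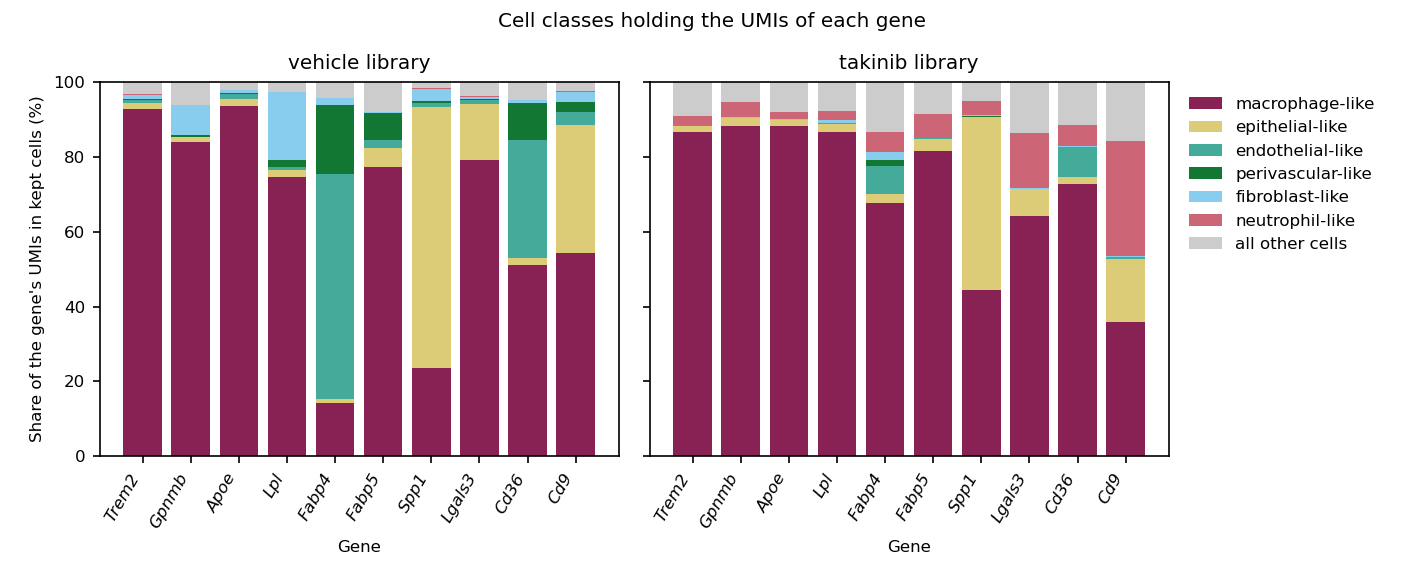
Share of each gene's UMIs (vertical axis, percent of the gene's UMIs in kept cells) held by 6 named classes and all other cells, 1 stacked bar per gene, vehicle left and takinib right. Epithelial-like cells hold 69.9% of Spp1 in vehicle, and endothelial-like cells 60.1% of Fabp4 in vehicle and 7.25% in takinib.

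Ranked by CPM within a library, each gene had its own order of cell types. For Trem2 the C1q state was highest in both libraries, 308 CPM [258, 365] in the vehicle library and 479 CPM [463, 496] in takinib, followed by the class II-high state at 251 [243, 259] and 273 [247, 302]. In vehicle the first 2 overlapped in their intervals. In takinib the alveolar-like, mixed and Saa3-Arg1 states followed at 196, 194 and 191 CPM with overlapping intervals. Every macrophage state was above the classes outside the macrophage and monocyte lineage, where the highest Trem2 level was in T-like cells, 71.0 CPM in vehicle and 49.6 in takinib. T cells are not known to make Trem2, and their level is taken as the background of RNA from other cells. It is a high one: the sum of the 12 macrophage markers in T-like cells was 9880 CPM for vehicle and 4921 CPM for takinib, above the 3316 and 1950 CPM of endothelial-like cells.

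Apoe was ordered like Trem2 at its top, with 30450 CPM in the vehicle C1q state, 17729 in the vehicle class II-high state, 19345 in the takinib C1q state and 15578 in the takinib class II-high state. T-like cells reached 4420 CPM [4244, 4602] for vehicle and 1360 CPM for takinib. The vehicle T-like interval overlapped those of proliferating macrophages (4621 CPM) and monocytes (4183 CPM), and alveolar-like cells, at 2415 CPM, were below it. All 3 were above the vehicle levels of endothelial-like (1688 CPM), B-like (972 CPM) and epithelial-like cells (540 CPM), so whether they exceed background depends on the class it is read from.

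Gpnmb was highest in the alveolar-like and C1q states in vehicle, 122 [111, 134] and 113 [83.5, 149] CPM, which overlap. In takinib the C1q state reached 2143 CPM [2108, 2178] and the alveolar-like state 782 CPM [767, 797]. Lpl, by contrast, was highest in alveolar-like cells of both libraries, 755 and 797 CPM, with fibroblast-like cells next in vehicle at 595 CPM and proliferating macrophages next in takinib at 390 CPM. Fabp4 was highest in endothelial-like cells of both libraries, 961 and 1027 CPM, and among macrophages in the alveolar-like state, 101 and 319 CPM. Cd36 was also highest in endothelial-like cells, 61.1 and 306 CPM, and among macrophages in alveolar-like ones, 19.7 and 74.9 CPM. Of its neighbouring pairs, 10 of 11 in the vehicle order and 13 of 15 in the takinib order overlapped.

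Fabp5 was highest in dendritic-like cells in vehicle, 2459 CPM from 57 cells, and in the C1q state in takinib, 2738 CPM. Spp1 was highest in epithelial-like cells in vehicle (7470 CPM) and in the C1q state in takinib (7305 CPM, above the epithelial-like 5827). Lgals3 led in alveolar-like cells in vehicle (1568 CPM) and in the C1q state in takinib (2335 CPM, with alveolar-like cells at 2158). Cd9 led in alveolar-like cells in both libraries, 1464 and 1205 CPM, and neutrophil-like cells came second in takinib at 1154 CPM. So 6 of the 10 genes had their highest takinib level in the C1q state, 2 in the alveolar-like state and 2 in endothelial-like cells.

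**Figure D2:**
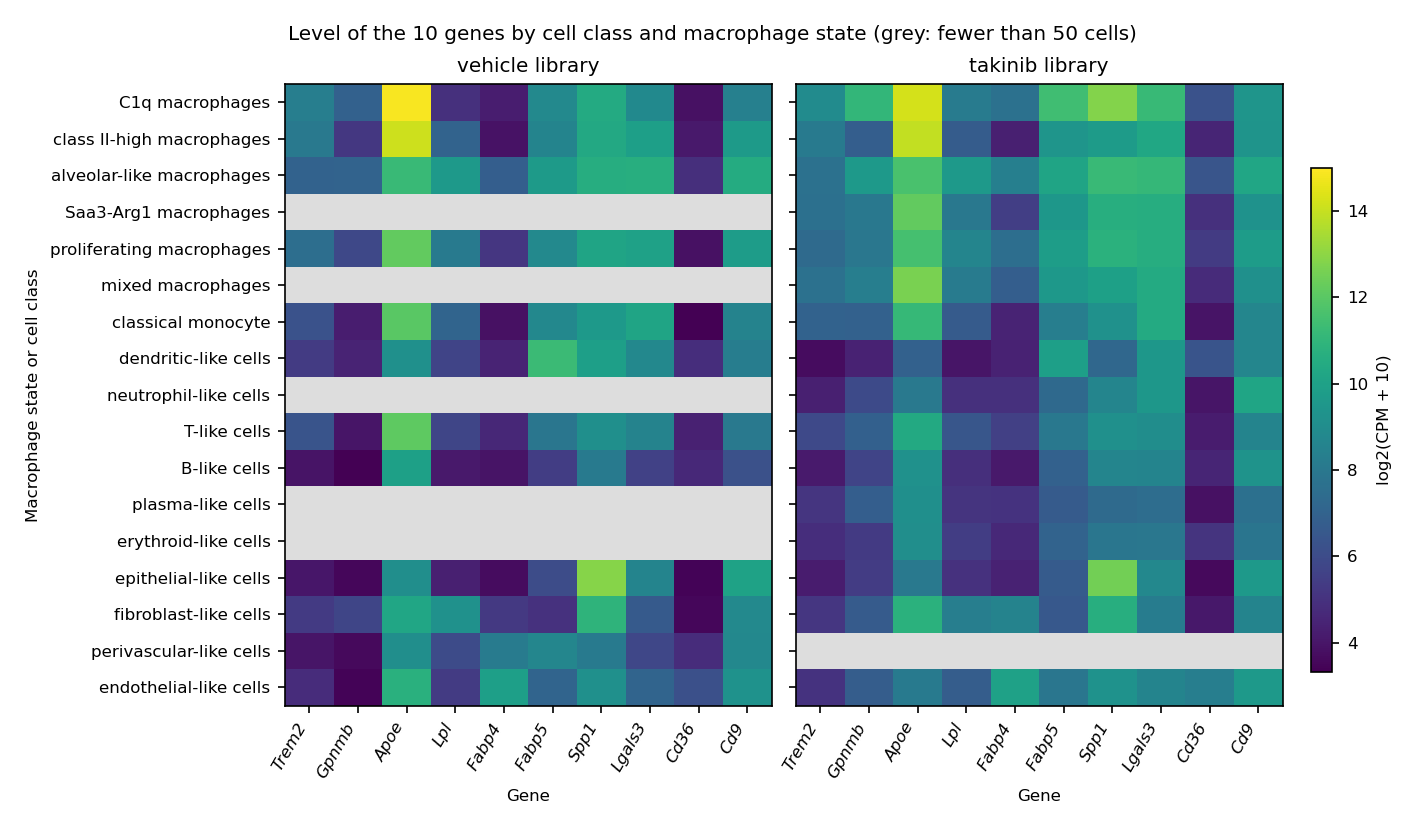
Colour gives log2(CPM + 10) of each of the 10 genes (horizontal axis) in each macrophage state or cell class (vertical axis), vehicle left and takinib right, with units of fewer than 50 cells in grey. Apoe is brightest in the C1q and class II-high rows of both panels, and Gpnmb is dark in vehicle and bright in the takinib C1q row.

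Over all kept cells, 1 of the 10 genes, Gpnmb, was higher in takinib (28.2 and 295 CPM) and 1, Apoe, was lower (7695 and 2845 CPM) by more than 1 on the log2 scale, where 2.62% and 3.42% of all genes were. In macrophage-like cells, 4 of the 10 genes were higher in takinib by this threshold, which also asks for at least 50 counts in a library, and 1 was lower. Over the 11810 genes of the class that met the count minimum, 1.89% were higher and 1.17% were lower by the same rule. The median log2 ratio of the 10 genes was 0.88, and that of all genes was -0.01. To form a ratio, 10 CPM was added to the level in each library, so that ratios of weakly expressed genes are too small.

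Gpnmb had the largest ratio. Its level was 47.0 CPM [44.1, 50.0] in the vehicle library and 710 CPM [702, 718] in takinib, from 994 and 31221 counts. The ratio was 15.1-fold without the added 10 CPM, and log2 3.66 [3.58, 3.74] with it. The takinib library was the high one by a wide margin over counting error. Trem2, the receptor for which the cells are best known, stood at 223 CPM in the vehicle library and 239 CPM in takinib (log2 0.09 [0.05, 0.14]), a difference far below the threshold. Of these 2 surface proteins, Gpnmb was thus past the threshold and Trem2 was not.

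The fatty acid binding proteins and the scavenger receptor were all higher in takinib. Fabp4 (chr3:10204088-10208576, GRCm38), best known from adipocytes and endothelium, had 23.2 CPM in the vehicle library and 157 CPM in takinib (log2 2.33 [2.23, 2.42]). The vehicle level was below that of empty vehicle droplets, 53.7 CPM [37.4, 74.6]. Fabp5, its neighbour on the chromosome (chr3:10012548-10016607), had 457 and 1168 CPM (log2 1.33 [1.30, 1.37]). Cd36 (chr5:17781690-17888801), which takes up fatty acids and oxidised lipoproteins, had 10.0 and 45.5 CPM (log2 1.47 [1.36, 1.58]). Lpl (chr8:68880491-68907448) had 245 and 427 CPM (log2 0.78 [0.74, 0.82]) and did not reach the threshold.

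Apoe (chr7:19696109-19699188), the lipid-carrying apolipoprotein of macrophages, was the gene that was lower in takinib, with 14293 CPM in the vehicle library and 6826 CPM in takinib (log2 -1.07 [-1.07, -1.06]). Of the secreted and surface proteins, Spp1 (chr5:104435118-104441050) had 1364 and 2705 CPM (log2 0.98 [0.96, 1.00]), just inside the threshold. Its vehicle level was also below that of empty droplets, 2065 CPM. Lgals3 (chr14:47367751-47386160) had 1079 and 1856 CPM (log2 0.78). Cd9 (chr6:125460266-125494791) had 916 and 816 CPM (log2 -0.16 [-0.19, -0.14]). Trem2 lies at chr17:48346401-48354147 and Gpnmb at chr6:49036546-49070929 in the GENCODE M21 annotation of GRCm38, from which all these spans are taken.

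**Figure D3:**
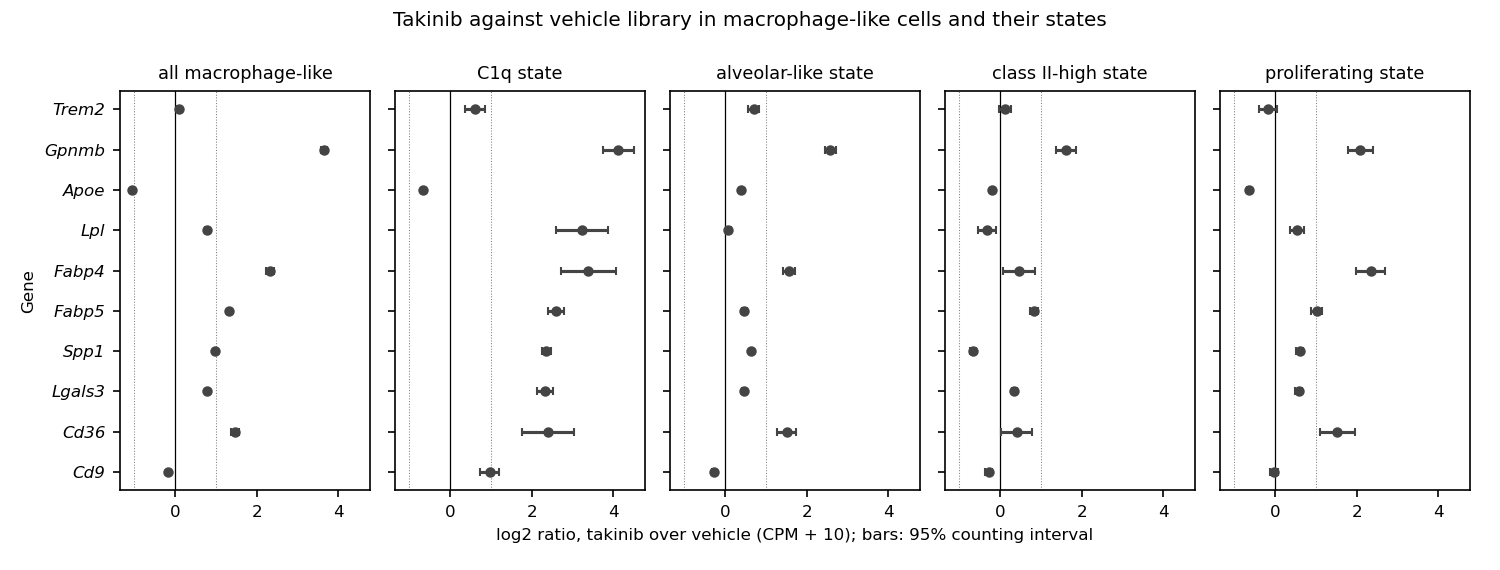
Log2 ratio of takinib to vehicle (horizontal axis, 10 CPM added to each level) for the 10 genes in all macrophage-like cells and in 4 states; points are the ratio, bars the 95% counting interval, dotted lines the threshold of 1 in either direction. Gpnmb lies right of the threshold in all 5 panels, and Apoe lies left of it in the first panel alone, at -1.07.

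The ratios moved with the weight given to each state. When takinib states were weighted to the shares of UMIs they had in vehicle, a setting chosen after the data were seen, 2 genes were higher and 0 lower, beside 0.584% and 0.517% of all genes, and the median was 0.30. Gpnmb then stood at 275 CPM against 47.0 (log2 2.32) and Fabp4 at 80.4 against 23.2 (1.45). Fabp5 came to 0.80 and Cd36 to 0.86, below the threshold. Apoe came to -0.20, Lpl to 0.00 and Spp1 to -0.06, so that the lower Apoe and the higher Lpl and Spp1 of the whole class were not seen at equal shares of states.

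The vehicle cells also differed among themselves by sex-linked transcripts. Among vehicle macrophage-like cells, 544 carried Xist without Y-linked UMIs and 1357 the reverse. Apoe was 6539 CPM [6441, 6638] in the first kind and 15562 CPM [15468, 15657] in the second, Lpl was 616 and 183 CPM, Trem2 146 and 232 CPM, Gpnmb 82.3 and 31.9 CPM. The states were unequally filled: 325 of the 544 were alveolar-like, against 109 of the 1357. Against the cells with Xist, which match the takinib cells in this respect, the log2 ratio was 0.06 for Apoe, -0.52 for Lpl, 0.68 for Trem2 and -0.71 for Cd9, and 2.96 for Gpnmb. Against the cells with Y-linked UMIs, Apoe was -1.19, Lpl 1.18 and Gpnmb 4.10. The direction of Apoe and Lpl thus depended on which vehicle cells were used, and that of Gpnmb did not. Against the cells with Xist, 3 genes were higher, Gpnmb, Fabp4 and Spp1 (1.51), beside 2.23% of all genes, and 0 were lower (0.894%). Fabp5 and Cd36, higher against all vehicle cells, did not pass there. Against the cells with Y-linked UMIs, 5 were higher, Gpnmb, Lpl, Fabp4, Fabp5 and Cd36 (2.07%), and 1, Apoe, was lower (1.28%).

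**Figure D4:**
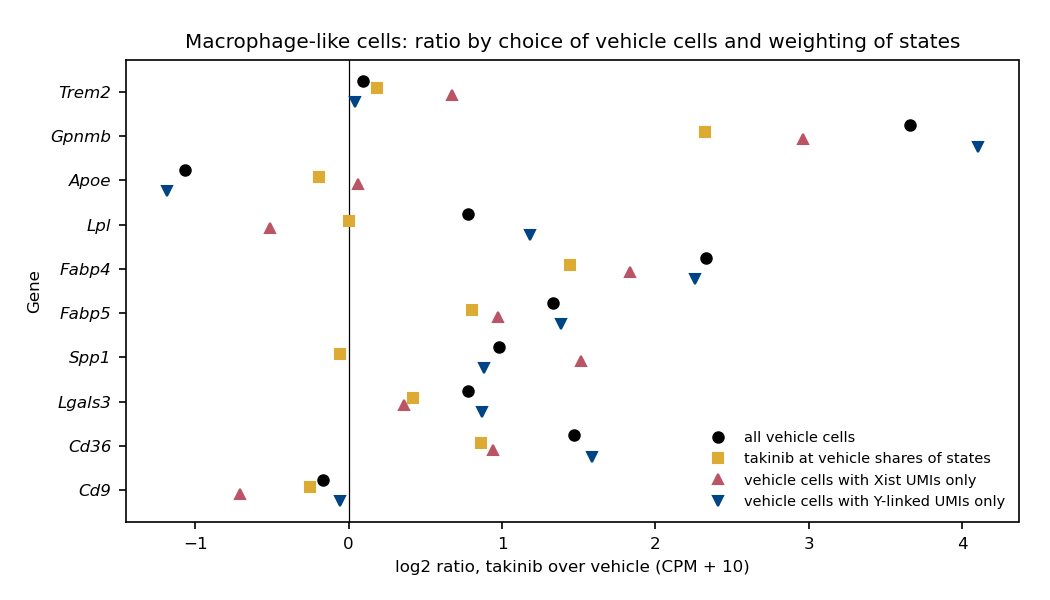
Log2 ratio of takinib to vehicle in macrophage-like cells (horizontal axis) for the 10 genes with all vehicle cells (circles), with takinib weighted to the vehicle shares of states (squares), and with the vehicle cells limited to those with Xist UMIs only (upward triangles) or Y-linked UMIs only (downward triangles). All 4 symbols of Gpnmb lie between 2.32 and 4.10, and those of Apoe between -1.19 and 0.06.

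Within states, the comparison was made where each library had at least 100 cells. In the class II-high state 1 of the 10 genes was higher, where 0.491% of all genes were. In the alveolar-like state 3 were higher (1.10% of all genes), in the proliferating state 4 (2.39%) and in the C1q state 7 (3.40%). Of the 7, Gpnmb, Lpl, Fabp4 and Cd36 met the minimum of 50 counts in takinib alone, as did Fabp4 and Cd36 of the 4. A gene that enters only through the library where it is high favours a call of higher, so the counts of these 2 states are given as a description. In each of the 4 states 0 of the 10 genes were lower, beside 0.722%, 0.505%, 1.13% and 2.71% of all genes. The median log2 ratio of the 10 genes was 0.24, 0.56, 0.59 and 2.38, and that of all genes was between 0.01 and 0.08.

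Gpnmb was the gene that was higher in all 4 states. It stood at 26.7 and 103 CPM in the class II-high state (log2 1.62 [1.38, 1.85]), 122 and 782 CPM in the alveolar-like state (2.58 [2.46, 2.71]), 48.0 and 237 CPM in the proliferating state (2.09 [1.78, 2.40]), and 113 and 2143 CPM in the C1q state (4.13 [3.76, 4.50]). Both class II-high values have a limit. The vehicle level lay within the interval of empty vehicle droplets, 24.5 CPM [14.0, 39.8]. T-like cells, which should lack Gpnmb, held 109 CPM in takinib, so the takinib class II-high level was not above theirs. The C1q and alveolar-like levels of takinib are above that of T-like cells. Takinib neutrophil-like cells, whose markers had a higher sum in takinib in each of the 4 states, held 51.9 CPM of Gpnmb, below the level of every takinib macrophage state.

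Fabp4 was higher in 3 states, with 101 and 319 CPM in alveolar-like cells (log2 1.57), 26.4 and 175 CPM in proliferating cells (2.35) and 9.21 and 192 CPM in the C1q state (3.40). Cd36 was higher in the same 3, with 19.7 and 74.9 CPM (1.52), 4.18 and 30.9 CPM (1.53) and 4.60 and 67.2 CPM (2.40 [1.76, 3.04], from 2 vehicle counts). Fabp5 was higher in the proliferating state, 437 and 896 CPM (1.02), and in the C1q state, 444 and 2738 CPM (2.60). The proliferating value was just past the threshold and fell below it under several alternatives, to 0.94 at Leiden resolution 2. In alveolar-like vehicle cells, Fabp4 was 53.9 CPM [43.3, 66.4] in the 325 cells with Xist and 202 CPM [168, 240] in the 109 with Y-linked UMIs, and Cd36 was 17.2 and 45.7 CPM. The spread between these 2 kinds of vehicle cells was thus of the order of the difference between libraries, and when vehicle was limited to the 109 cells, 1 of the 10 genes, Gpnmb, was higher in this state, where 1.97% of all genes were.

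Trem2 differed by 0.62 in the C1q state, 0.71 in the alveolar-like state, 0.12 in the class II-high state and -0.17 in the proliferating state. Apoe differed by -0.65, 0.40, -0.19 and -0.64 in the same order, and Cd9 by 0.97, -0.28, -0.28 and -0.03. None of the 3 passed the threshold in any state at the main settings. Under alternatives, Apoe was lower, at -1.27, in the alveolar-like state when the 10 genes took part in the clustering (0.829% of all genes). Trem2 was higher, at 1.02, in that state at Leiden resolution 0.5 (1.48%). Cd9 was higher, at 1.14, in the C1q state with cells thinned to 1000 UMIs (10.6%).

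The C1q state had the largest ratios, and they depended on how finely cells were clustered. Besides the genes above, Lpl was 20.7 and 279 CPM there (log2 3.24, from 9 vehicle counts), Spp1 1411 and 7305 CPM (2.36) and Lgals3 456 and 2335 CPM (2.33). At Leiden resolution 2 in place of 1, the 1014 takinib cells of this state fell mainly into 2 clusters, of 457 and 521, where 133 of the 142 vehicle cells went into the first and 9 into the second. The first, which kept the C1q markers (led by Ccl8, Cxcl13, Cbr2, Folr2 and Cd163), had 308 vehicle and 469 takinib cells in all. In it 3 of the 10 genes were higher, beside 2.63% of all genes: Gpnmb at 175 and 680 CPM (1.90), Fabp4 (2.67) and Fabp5 (1.55), while Lpl came to -0.17 and Spp1 to -0.39.

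The second cluster had 15 vehicle and 700 takinib cells in all. Although none of the 10 genes took part in the clustering, 4 of its 10 leading genes by fold over other clusters were Gpnmb, Fabp5, Spp1 and Trem2, beside the lysosomal proteases Ctsk, Ctsl and Ctss. Its takinib cells had 2552 CPM of Gpnmb, 3137 of Fabp5, 8513 of Spp1, 2942 of Lgals3, 478 of Trem2 and 12870 of Apoe. Another cluster, of 11 vehicle and 780 takinib cells, led by H2-M2 and Mmp12, had Lpl and Gpnmb among its 10 leading genes, with 992 and 979 CPM in takinib. The higher level of the C1q state in takinib at resolution 1 thus came with cells that clustered with few vehicle cells. A cluster that is almost all from 1 library may reflect that library, and this was not tested.

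Takinib macrophages of the Saa3-Arg1 state, the largest there, were not compared, as vehicle had 29 such cells. They held 249 CPM of Gpnmb, 191 of Trem2, 720 of Fabp5, 1594 of Spp1, 34.5 of Fabp4 and 4699 of Apoe. For each of these 6 genes they stood below the takinib C1q state. They were below the takinib alveolar-like state for Gpnmb, Fabp5, Spp1 and Fabp4, above it for Apoe, and overlapped it for Trem2. That few vehicle cells had this name depended on the clustering: at resolution 2 the marker score gave it also to a cluster of 1342 vehicle and 231 takinib cells, led by Trf, Tnfrsf9, Alox15, Ccn3 and Arg1. In that cluster Gpnmb was 44.7 and 222 CPM, Trem2 244 and 252 CPM, Fabp5 452 and 853 CPM, Spp1 1977 and 2869 CPM, and Apoe 14026 and 13066 CPM.

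Counts per cell were compared after each cell was thinned to 1000 UMIs, because depth differed. Gpnmb was detected in 2.47% of vehicle macrophage-like cells and 19.98% of takinib ones (7.21% and 40.5% without thinning, at median depths of 3886 and 6138 UMIs). T-like cells, as the background, had 0 of 252 in vehicle, and 6.23% in takinib (0.794% and 10.2% without thinning, at 1424.5 and 1887 UMIs). With a limit of 3 cells taken for a count of 0, in place of a Clopper-Pearson bound, 0 of 252 allows a share of up to 1.19%. By state, takinib shares were 41.1% in C1q cells, 26.3% in alveolar-like cells, 16.5% in proliferating cells and 8.96% in Saa3-Arg1 cells, all above the T-like share. In class II-high cells it was 6.49% [3.83, 10.2], which is read as background.

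For Trem2 the thinned share was 18.8% in vehicle and 18.0% in takinib macrophage-like cells, beside 3.17% and 2.48% in T-like cells. Fabp5 was detected in 22.6% and 36.4%, beside 10.3% and 10.1% in T-like cells. Lpl was detected in 12.3% and 19.3%, beside 0.397% and 2.88%. Fabp4 was detected in 1.10% and 7.68%, beside 2.38% and 1.36%, so its vehicle share was at background. Apoe was detected in 88.2% and 67.6%, beside 52.0% and 27.0%. Lgals3 was detected in 54.1% and 66.5%, beside 10.3% and 20.8%, Cd9 in 49.8% and 43.6%, beside 12.3% and 18.8%, and Spp1 in 45.3% and 40.2%, beside 27.4% and 28.1%. Cd36 was detected in 0.776% and 3.18%, beside 0.794% and 0.719%, so that its vehicle share was at background as well.

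Macrophage-like cells that carried many of the 10 genes together were more frequent in takinib, though not in every state. The number detected per thinned cell averaged 2.96 (SD 1.26 over cells) in vehicle and 3.22 (SD 1.75) in takinib macrophage-like cells, and 4.74 and 5.61 without thinning. At least 5 of the 10 were detected in 10.8% [9.96, 11.7] of vehicle and 21.9% [20.9, 22.9] of takinib macrophage-like cells. The share was 4.23% and 35.9% in the C1q state, 15.5% and 31.5% in the alveolar-like state, 11.7% and 24.4% in the proliferating state, and 9.92% and 11.8% in the class II-high state, where the intervals overlap. Takinib Saa3-Arg1 cells, the largest state there, had 10.6% [9.44, 11.8], and takinib mixed cells 11.6%. Over all kept cells the share was 6.01% [5.54, 6.50] and 6.70% [6.39, 7.01]. In T-like cells it was 1.19% and 1.20%.

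**Figure D5:**
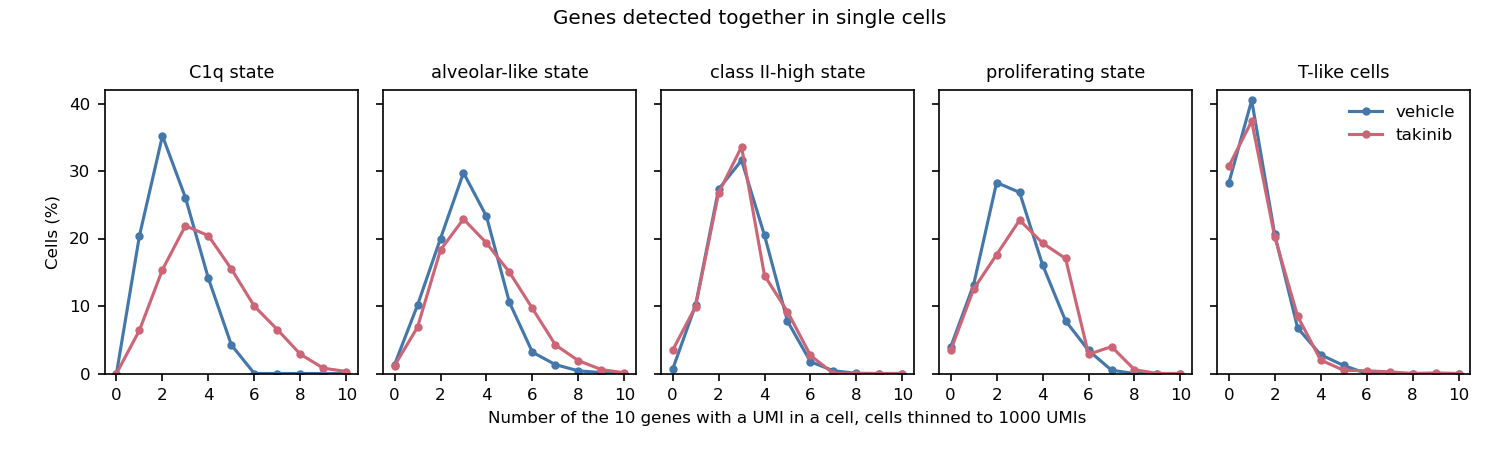
Share of cells (vertical axis, percent) by how many of the 10 genes had a UMI in the cell (horizontal axis), cells thinned to 1000 UMIs, for 4 macrophage states and T-like cells; blue is vehicle and red takinib. The takinib curve lies to the right in the C1q and alveolar-like states, and both curves of T-like cells peak at 1 gene.

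Within takinib C1q cells, Gpnmb was found with the other genes. Among the 417 thinned cells with a Gpnmb UMI, 77.0% had Fabp5, 66.9% Spp1, 41.5% Trem2 and 15.8% Fabp4, against 46.6%, 42.5%, 26.6% and 4.36% of the cells without it. Apoe was near all cells in both, 95.9% and 96.5%. In takinib alveolar-like cells the 540 cells with Gpnmb had Fabp5 in 64.1% against 32.8%, and Lpl in 49.6% against 34.3%. These cells come from 1 library each, and the shares describe them only.

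Outside macrophages, some of the 10 genes differed between the libraries in the classes compared, those of at least 100 cells per library. Fabp4 was 28.1 CPM in 551 vehicle fibroblast-like cells and 359 CPM in 102 takinib ones (log2 3.28 [2.95, 3.61]), a class in which 2 of the 8 genes that met the count minimum were higher (2.16% of all genes) and 0 were lower (5.52%). In the same cells Lpl was 595 and 310 CPM (-0.92). Endothelial-like cells had like levels of Fabp4, 961 and 1027 CPM (0.09 [-0.03, 0.21]), and Cd36, which takes up fatty acids in capillaries, was 61.1 and 306 CPM (2.15 [1.87, 2.44]). In that class 4 of 9 genes were higher (3.64% of all genes) and 1, Apoe, was lower (5.61%), and the sum of the neutrophil markers was 589 CPM for vehicle and 25916 CPM for takinib. Epithelial-like cells had 7470 and 5827 CPM of Spp1 (-0.36), with 1 of 10 genes higher, Gpnmb (2.24% of all genes), and 1 lower, Apoe (1.87%). Gpnmb met the count minimum in takinib alone in endothelial-like, epithelial-like and T-like cells.

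Gpnmb was also higher and Apoe also lower in T-like cells, at 5.61 and 109 CPM and at 4420 and 1360 CPM (1 of 9 genes higher beside 4.55% of all genes, 1 lower beside 1.31%). In the same cells the macrophage markers were lower in takinib, 9880 and 4921 CPM, and the 9 neutrophil markers were higher, 536 and 17386 CPM. B-like cells had Gpnmb, Fabp5, Lgals3 and Cd9 higher (10.8% of all genes were), the last at 63.6 and 634 CPM. All 4 met the count minimum in takinib alone, which favours this direction, and the neutrophil markers were 801 and 47936 CPM. Gpnmb had 0 counts in vehicle B-like cells and 123 in takinib. The direction of Gpnmb and Apoe in T-like cells was that of macrophage-like cells, while Cd9, higher in B-like cells, was 916 and 816 CPM in macrophage-like ones. The part of free RNA in these levels was not tested.

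The genes most alike in level across cell types were found over 28 units, each a state or class of 1 library with 50 cells or more, among 10717 genes. Pearson's r of log2(CPM + 10) is a description, since units of a library share its depth and free RNA. Trem2 was most like C1qb (r = 0.96), Msr1 and Cndp2, and Apoe like C1qa (0.96), C1qc and C1qb. C1q genes encode complement and Msr1 a scavenger receptor of macrophages. Gpnmb was most like Marco (0.82), another scavenger receptor, Ttc39c and Atp6v0d2, a proton pump subunit. Lpl was most like Cd302 (0.84), Kazald1 and Slc7a2, Fabp5 like Lactb (0.85), Gltp and Aph1c, and Lgals3 like Ftl1 (0.92), Cyba and Atp6v0c. Fabp4 was most like the endothelial genes Epas1 (0.81) and Fzd4, with Gmpr, and Cd36 like Vwf (0.74), Rnf144b and Cd200. Spp1 was most like Anxa4 (0.82), Scamp5 and S100a1, and Cd9 like Chp1 (0.82), Chmp3 and Litaf. Among pairs of the 10 genes, Trem2 and Apoe had the highest r, 0.91, followed by Trem2 and Lgals3 at 0.72.

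Genes of the same pathways mostly differed little in macrophage-like cells. Of 96 such genes in 10 lists, 91 met the count minimum, 5 were higher in takinib (1.89% of all genes were) and 2 lower (1.17%), with a median of 0.17. Among the 7 partners of Trem2 signalling 0 passed the threshold in either direction. The adaptor Tyrobp had 2991 and 3075 CPM (log2 0.04), Hcst was at 0.82, Adam17, which can shed Trem2, at 0.48, Plcg2 at -0.30 and Adam10 at -0.29.

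Among sterol efflux genes and apolipoproteins, 1 of 9 was higher: Abca1, which loads cholesterol onto apolipoproteins, with 150 and 331 CPM (1.09). Abcg1 was at 0.71, Scarb1 at 0.08 and Apoc2 at -0.22. Of 17 genes of lipid storage, lipolysis and oxidation 2 were higher, Dgat2, which makes triglyceride, with 4.96 and 41.2 CPM (1.77) and Acsl1, which activates fatty acids, with 17.0 and 64.8 CPM (1.47). Lipe was at -0.45 and Cpt1a at -0.14, and the lipid droplet coat gene Plin2 had 315 and 335 CPM (0.09). Of 7 lipid uptake receptors 0 passed in either direction, with Lrp1 at 0.99, Sort1 at 0.64 and Olr1 at -0.09. Of 5 genes that act with Lpl 0 passed, with Sel1l at 0.22, Apoc2 at -0.22 and Angptl4, an inhibitor of Lpl, at -0.65.

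Of 16 lysosomal genes 1 was higher, the protease Ctsl with 694 and 1614 CPM (1.21). Ctsb was at 0.59 and Ctsz at -0.40. Of 15 regulators 0 passed: Maf at 0.71, Pparg, a lipid-sensing receptor that drives Fabp4 and Cd36, at 0.59, Bhlhe40 at -0.75 and Cebpa at -0.87. Of 7 receptors for Spp1, Itgb5 was lower with 209 and 75.1 CPM (-1.37). Cd44 was at 0.46, Itgb1 at 0.39 and Itgb3 at 0.00. Of 7 tetraspanins other than Cd9, Cd37 was higher with 27.3 and 110 CPM (1.68) and Cd81 lower with 354 and 142 CPM (-1.26), while Tspan4 was at 0.87 and Cd63 at 0.04. Of 4 galectins other than Lgals3, 0 passed, with Lgals8 at 0.49, Lgals1 at 0.46, Lgals3bp at 0.28 and Lgals9 at -0.26.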

How the data were processed

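Single-cell RNA was counted in 2 samples, 1 library per group. The authors deposited raw UMI counts for each gene in each barcode. Per the file headers they come from Cell Ranger 4 (vehicle) and Cell Ranger 6.1.1 (takinib). The submitters' processing notes list Cell Ranger 2.1.1, bcl2fastq, STAR 2.0.4b, Subread, featureCounts 1.45 and mm10, without saying which made these files. The vehicle file is unfiltered (704261 barcodes), while the takinib file (34158) holds none under 500 UMIs, so free RNA could not be measured alike in both.

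The minimum was 1000 UMIs and 500 genes per cell, with mitochondrial UMIs up to 20%, and the kept cells held 42000538 and 119726977 UMIs. Scrublet removed 314 vehicle doublets; in takinib its automatic threshold marked 0.00373%, so the 6% of barcodes that scored highest were taken out (1607). Both libraries were clustered together, without the 10 genes, in scanpy 1.11.5 (2000 variable genes, 30 components, 15 neighbours, Leiden resolution 1). A cluster was named by the mean scaled level of each class's markers, with at least 3 detected in 10% of cells above a scaled level of 0.2. It stayed unnamed where a second class reached 0.75 of the best, although macrophage and monocyte did not bar each other. It also stayed unnamed where another class had more markers among the 10 leading genes, or where depth was low and no marker led. This scoring was set after the data were seen. A cluster of 121 takinib cells, led by Vcam1, Cd5l and Slc40a1, scored best as macrophage, stayed unnamed and is not counted as macrophage-like.

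Counts were summed per state or class and library and scaled to CPM. Intervals at 95% are exact Poisson for CPM, Clopper-Pearson for shares and by the delta method for log2 ratios. Comparisons needed 100 cells per library, levels 50. The ratio and thinning steps were tested on simulated data. All 10 genes are named; in addition, the 3 genes most alike to each and the 2 highest and 2 lowest of each pathway list were named, except 3 that are not reported here. Tyrobp and Plin2 were named beyond this rule, after their values were seen. The genes and lists were chosen with earlier results of these data known. Alternatives covered cell filters, doublets, clustering, thinning, pseudocount (1 CPM), scaling, denominators, the count minimum (200 or none) and the vehicle cells used.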

Additional observations from a re-analysis of the deposited data

Results flagged for a closer look

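All 10 genes gave signal in data that no comparison used, the 376283 vehicle barcodes of at most 100 UMIs, which hold 652323 UMIs and stand for empty droplets. Apoe had 4387 CPM there, close to its level in vehicle T-like cells (4420 CPM), and Spp1 had 2065 CPM. Cd9 had 521 CPM, Lgals3 349.5 CPM and Fabp5 138 CPM. Lpl had 82.8 CPM, Trem2 64.4 CPM, against 71.0 CPM in vehicle T-like cells, and Fabp4 53.7 CPM. Gpnmb had 24.5 CPM, from 16 counts, and Cd36 13.8 CPM, from 9 counts. Vehicle macrophage-like cells were above these levels for Trem2, Gpnmb, Apoe, Lpl, Fabp5, Lgals3 and Cd9, and below them for Spp1 and Fabp4. For Cd36 their level, 10.0 CPM, lay within the interval of the empty droplets [6.31, 26.2]. The same barcodes were not analysed in takinib, whose file starts at 500 UMIs.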

How the results depend on the processing

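Of 557 values of single genes under an alternative, 322 moved by less than their counting interval and 232 by more, and 3 that were past the threshold took the other sign. These were Apoe in macrophage-like cells against vehicle cells with Xist only (0.062), and Lpl (-0.17) and Spp1 (-0.39) in the C1q state at Leiden resolution 2. Another 17 values changed sign where the gene had not passed the threshold, among them Lpl in macrophage-like cells against vehicle cells with Xist only (0.78 to -0.52) and Apoe in the alveolar-like state when clustering used the 10 genes (0.40 to -1.27, past the threshold). Over its 15 alternatives in macrophage-like cells Gpnmb stayed between 2.32 and 4.10 and Fabp4 between 1.45 and 2.71.

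In macrophage-like cells the count lower went from 1 to 0 with at most 10% mitochondrial UMIs and against vehicle cells with Xist only. The same was seen at vehicle shares of states, where the count higher was 2 in place of 4. It was 3 against vehicle cells with Xist only (2.23% of all genes), where Fabp5 and Cd36 did not pass and Spp1 did. Lpl made it 5 against those with Y-linked UMIs only (2.07%). Spp1 made it 5 with at least 2000 UMIs and 1000 genes (1.91%), with at most 10% mitochondrial UMIs (1.97%) and without the mixed cluster (1.9%). The median log2 ratio at the main settings was 0.88. It was 0.85 with at most 10% mitochondrial UMIs, 0.82 with doublets kept, 0.83 at resolution 0.5, 0.81 with cells thinned to 1000 UMIs, 0.81 against vehicle cells with Xist only, 1.03 against those with Y-linked UMIs only, 0.79 as a mean over cells, 0.81 with members, S100a8, S100a9 and mitochondrial genes out of the denominator, and 0.30 at vehicle shares of states. In the class II-high state 1 gene was lower with doublets kept, when clustering used the 10 genes, and at resolution 2, and 3 and 2 were higher at resolutions 0.5 and 2. In the alveolar-like state 5 were higher and 1 lower when clustering used the 10 genes, and 5 were higher at resolution 0.5. There 4 were higher with doublets kept and against vehicle cells with Xist only, and 1 against those with Y-linked UMIs only. In the C1q state 3 were higher at resolution 2, 6 with doublets kept and when clustering used the 10 genes, and 8 with thinned cells. In the proliferating state 1 was higher with thinned cells. There 3 were higher, without Fabp5, with at most 10% mitochondrial UMIs, doublets kept or clustering with the 10 genes. The same 3 were higher at resolutions 0.5 and 2 and with scaling to the median gene. Of all genes, 0.828% to 10.6% were higher in the settings of these states with another count higher, the largest share in thinned C1q cells. In those with a gene lower, 0.829% to 1.17% were lower. Without thinning, the mean number of genes detected was 4.74 and 5.61. The cause of these shifts was not tested, except that a cell holds more genes at full depth.

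The C1q state gave no value with at least 2000 UMIs and 1000 genes, with at most 10% mitochondrial UMIs, at resolution 0.5 or with vehicle cells split by sex-linked transcripts, and the proliferating state none with that split, as fewer than 100 cells of a library were left or no such state was named. No paired analysis was possible because each group has 1 library.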
